A study of Mus musculus with 45 samples.

Results

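Interferon-stimulated genes are the genes that a cell turns on when type I or type II interferon binds its receptor. Receptor-bound kinases phosphorylate STAT proteins, which enter the nucleus alone or together with IRF9 and bind short promoter motifs, the interferon-stimulated response element (ISRE) and the gamma-activated site (GAS). The products sense or destroy viral RNA, hold virions at the cell surface, attach the ubiquitin-like protein ISG15 to other proteins, or feed back on interferon signalling, and lymphocytes in a reacting lymph node carry the programme at varying levels. The 45 members described here were chosen by symbol, as genes known to be induced by type I or II interferon, out of 55450 genes in the count table. The list was drawn up with earlier results of these data known, so the direction of its members is a description and not independent evidence.

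The study compared wild-type (WT) mice with mice lacking sphingosine-1-phosphate receptor 4 (S1PR4-/-), a G-protein-coupled receptor of blood cells. S1PR4-/- mice carried the B6.129P2-S1pr4tm1Dgen/J allele, which had been crossed for 10 or more generations onto C57/BL6, and the WT mice were littermates. The deletion is germline, so every cell of the mouse lacked the receptor, not the sorted cells alone. Both sexes were used at 8 to 12 weeks of age. Every mouse received 50 µg ovalbumin and 5 µg LPS emulsified in incomplete Freund's adjuvant, 20 µl into the hind footpad, so no group was unimmunized and no group was without LPS. Draining popliteal lymph nodes were sorted on day 6 into T follicular helper cells (Tfh, TCRβ+CD4+PD1+CXCR5+) and other CD4 T cells (non-Tfh, PD1-CXCR5-), and on day 9 into germinal center B cells (GC B, B220+GL7+Fas+) and other B220+ cells (non-GC B, GL7-Fas-). Bulk RNA-seq gave 6 libraries per genotype in Tfh, non-Tfh and GC B, 5 WT and 4 S1PR4-/- libraries in non-GC B, and 45 in all. B and T cells differ in day as well as lineage, and these cannot be told apart. The labels do not say which animals gave which library, so p-values measure the spread between libraries.

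Library totals ran from 26299429 to 45548215 expected counts, and levels are given as CPM, counts scaled to a common library total, after TMM scaling over all libraries. S1pr4, the deleted gene, was at most 1.02 CPM in S1PR4-/- libraries and at least 17.1 CPM in WT ones. T cell markers summed to 7362 to 8932 CPM in WT Tfh and 6698 to 8067 CPM in WT non-Tfh, and B cell markers to 7048 to 10812 CPM in WT GC B and 12809.9 to 13616 CPM in WT non-GC B. Siglech, a marker of plasmacytoid dendritic cells, which also express B220, was at most 1.02 CPM in WT non-GC B libraries 1 to 3 but 37.6 CPM in library 4 and 40.1 CPM in library 5, and it was 0, 15.3, 17.1 and 26.7 CPM in the 4 S1PR4-/- non-GC B libraries. S1PR4-/- GC B library 3 held 15683 CPM of plasma cell markers against a group median of 3255, and S1PR4-/- Tfh library 6 held 447 CPM of myeloid markers against a group median of 66.4. Neutrophil markers S100a8, S100a9, Ly6g and Retnlg were all under 1 CPM in each of the 8 groups.

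The promoters of the members were searched for both motifs. RefSeq promoters (build GRCm38.p6, 250 bases before to 50 after the start site) were available for 33 of the 45 members. The ISRE core, GAAANNGAAA on either strand, lay in 18 of these 33 (54.5%), against 3.99% of the 27025 gene symbols in the promoter table. The GAS, TTCNNNGAA, which reads the same on both strands, lay in 8 of 33 (24.2%), against 9.55% of all symbols. Bst2, Eif2ak2, Igtp and Oas1a held both motifs, which overlapped each other in 1 of them, Bst2. A match describes letters in a window and was not tested as a binding site.

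The upstream 250 bases of Isg15, the ubiquitin-like modifier itself, are printed whole, because the core occurs 3 times in an overlapping run (minus strand, chr4:156200819-156201068). Capitals mark the ISRE cores, and the sequence runs 5′ to 3′ towards the gene.
Isg15: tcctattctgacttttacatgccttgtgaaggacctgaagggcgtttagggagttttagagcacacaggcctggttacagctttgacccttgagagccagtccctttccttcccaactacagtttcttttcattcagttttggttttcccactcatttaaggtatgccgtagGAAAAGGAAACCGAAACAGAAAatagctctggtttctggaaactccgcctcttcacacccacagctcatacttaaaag
The run begins 78 bases before the start site.

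Windows around the cores of 8 further members, with 10 bases on each side and capitals on the cores, show how the element varies between the genes whose values follow. TTTC on either side of 2 bases is the same core read from the other strand. They are Ifit1 (chr19:34640775-34640823, plus strand), Ifit3 (chr19:34583363-34583426, plus), Ifit3b (chr19:34607759-34607822, plus), Rsad2 (chr12:26456553-26456582, minus), Oas3 (chr5:120777715-120777744, minus), Gbp2 (chr3:142620594-142620623, plus), Igtp (chr11:58199512-58199541, plus) and Slfn5 (chr11:82951937-82951966, plus).
Ifit1: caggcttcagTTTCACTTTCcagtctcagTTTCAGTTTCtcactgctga
Ifit3: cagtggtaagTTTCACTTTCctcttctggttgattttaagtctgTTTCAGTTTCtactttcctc
Ifit3b: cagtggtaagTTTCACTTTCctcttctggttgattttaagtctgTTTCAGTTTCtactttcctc
Rsad2: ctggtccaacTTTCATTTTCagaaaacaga
Oas3: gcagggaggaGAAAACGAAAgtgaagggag
Gbp2: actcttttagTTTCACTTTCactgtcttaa
Igtp: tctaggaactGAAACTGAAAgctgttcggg
Slfn5: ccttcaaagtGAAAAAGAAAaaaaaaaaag
The printed windows of Ifit3 and Ifit3b were identical. Ifit1, Ifit3 and Ifit3b each carried a pair of cores, and the others printed here carried 1. Members with a core and members without one had median log2 fold changes of -0.95 and -1.32 between WT GC B and non-GC B, and of -0.32 and -0.17 between S1PR4-/- and WT Tfh, given as descriptions.

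Several members lie side by side in the genome (mm10, GENCODE M21). Ifit2, Ifit3, Ifit3b and Ifit1, which encode RNA-binding tetratricopeptide proteins, follow each other between chr19:34550694 and 34650009. Oas2, Oas3, Oas1g and Oas1a lie between chr5:120730333 and 120907521. Parp14, Dtx3l and Parp9 lie between chr16:35832874 and 35972605, where the ends of the Dtx3l and Parp9 gene models overlap head to head. Ifit3 shares 51.2% of its 50-base transcript words with other genes, mostly Ifit3b, whose shared words are in turn mostly those of Ifit3. Oas1a shares 57.6%, mostly with Oas1g, which shares 45.7%. Reads within these pairs could be divided wrongly, so their values are uncertain. Outside both pairs Ly6a shared the most, at 19.0%.

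Among the WT populations, GC B cells held the members at the lowest level. A member score, the mean log2 CPM over the 45 members, was 5.94 ± 0.43 (SD, n = 6) in WT Tfh, 5.94 ± 0.73 (SD, n = 5) in WT non-GC B, 5.61 ± 0.32 (SD, n = 6) in WT non-Tfh and 4.90 ± 0.67 (SD, n = 6) in WT GC B. WT Tfh scores ran from 5.56 to 6.54 with a median of 5.78, and WT GC B scores from 4.00 to 5.77 with a median of 4.88. The ranges of the first 3 populations overlapped, and GC B reached into each of those ranges with its highest libraries. Of the 45 members, 26 had their highest WT mean in non-GC B, 12 in Tfh, 6 in non-Tfh and 1, the exonuclease gene Isg20, in GC B, while 29 had their lowest mean in GC B.

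**Figure D1:**
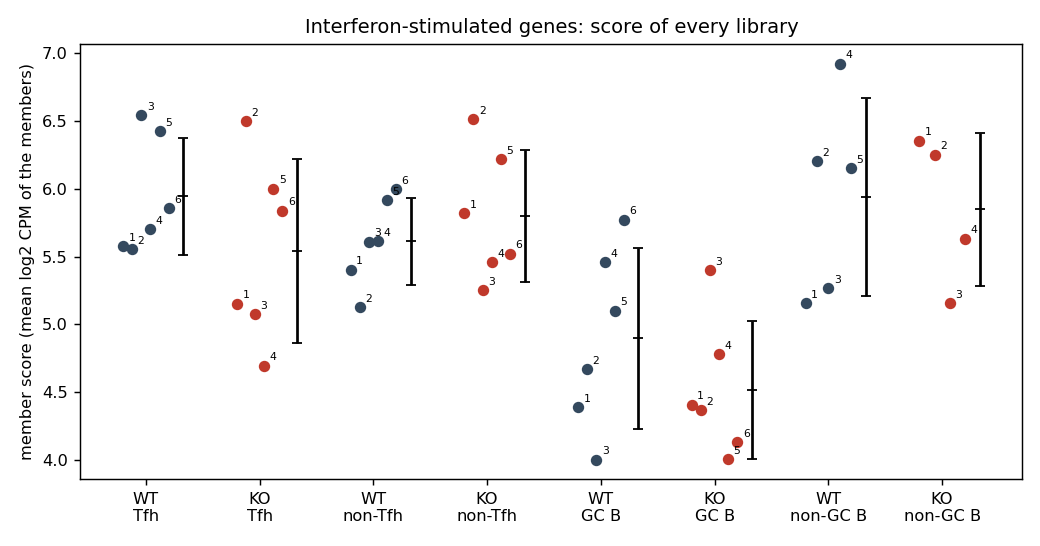
Member score (mean log2 CPM of the 45 members, vertical axis) of every library, by group. Points are libraries with their replicate numbers, and bars give the mean and SD. WT GC B libraries lie between 4.00 and 5.77, and WT non-GC B libraries between 5.16 and 6.92.

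Per kilobase of merged exons, the members with the highest mean level were the same 3 in all WT populations. Ifi27l2a, a small membrane protein gene, stood at 1105 CPM per kb in WT Tfh and 361 in non-Tfh. Ly6a, which encodes the surface protein Sca-1, stood at 856 CPM per kb in WT Tfh and 482 in GC B. Ly6e, a GPI-anchored surface protein that limits virus entry, was highest in non-GC B at 828 CPM per kb and at 402 in GC B. At the other end, Oas1g was at most 2.38 CPM in any library. The antiviral GTPase gene Mx1, of which C57BL/6 mice carry a defective allele, stood at 0.531 CPM per kb in WT non-Tfh but 3.78 in Tfh. Ifi44 stood below Mx1 in the other WT populations, at 0.378 CPM per kb in Tfh, 0.281 in GC B and 0.459 in non-GC B.

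**Figure D2:**
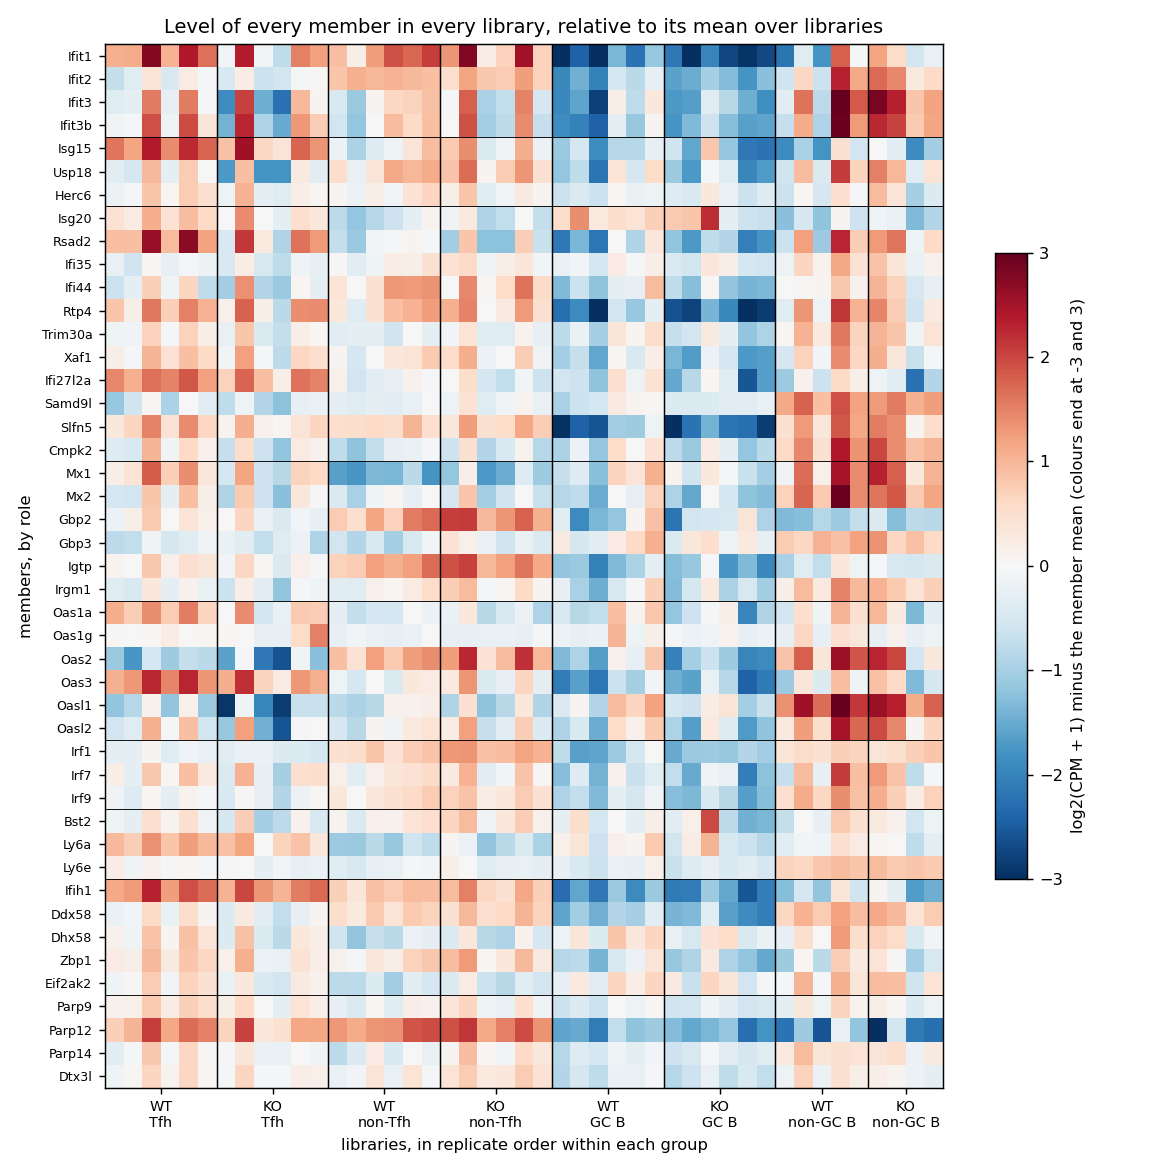
Every member (rows, by role) in every library (columns, by group in replicate order), as log2(CPM + 1) minus the member's mean over libraries. GC B columns are mostly blue and non-GC B columns mostly red, and whole columns shift together within a group, as in WT non-GC B library 4. The lowest member scores among non-GC B libraries were those of WT libraries 1 and 3 (5.16 and 5.27) and S1PR4-/- library 3 (5.15).

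WT Tfh and non-Tfh cells differed in which members were high. A member was called where the adjusted p of edgeR's quasi-likelihood test was under 0.05 and the fold change over 1.5. Of the 44 members tested, 12 were called higher in Tfh (background 22.8% of 13481 genes) and 6 lower (background 20.4%). Both counts lay near what the background shares give over as many genes. The median log2 fold change was 0.28, against 0.00 over all genes, and it fell to 0.09 without WT Tfh library 3 and to 0.14 without WT Tfh library 5. Oas1g did not pass the filter on low counts here.

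Mx1 ranged from 8.17 to 26.9 CPM with a median of 10.9 in WT Tfh and from 1.34 to 3.55 CPM with a median of 1.84 in non-Tfh. The groups did not overlap, and the log2 fold change was 2.83 (SE 0.34, adjusted p = 3.18e-06). Rsad2 encodes viperin, which makes a modified nucleotide that halts viral RNA synthesis. It ranged from 16.9 to 61.9 CPM with a median of 19.4 in Tfh and from 3.45 to 9.21 CPM with a median of 8.22 in non-Tfh, a log2 fold change of 2.18 (SE 0.39, adjusted p = 1.45e-04). Oas2, one of the synthetases that make the oligoadenylate messenger of RNase L, went the other way. It ranged from 1.91 to 5.75 CPM with a median of 4.11 in Tfh and from 12.1 to 24.7 CPM with a median of 19.6 in non-Tfh, again with no overlap, and its log2 fold change was -2.23 (SE 0.24, adjusted p = 9.46e-07). Mx1, Rsad2 and Oas2 were picked as the largest fold changes among the called members. The share of all genes without overlap between these groups was not computed.

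Values in parentheses after a gene are log2 fold changes. The oligoadenylate synthetase family was divided, with Oas1a (1.45) and Oas3 (1.78) called higher in Tfh and Oas2 lower. Among the nucleic acid sensors, Ifih1 (MDA5, 0.90), Dhx58 (LGP2, 1.02) and Eif2ak2 (PKR, 0.99) were called higher, and Ddx58 (RIG-I) had a value of -0.44 that did not reach the fold threshold. Isg15 averaged 77.0 ± 25.8 CPM (SD, n = 6) in Tfh and 21.9 ± 10.8 CPM (SD, n = 6) in non-Tfh and was called higher with a log2 fold change of 1.81 (SE 0.29, adjusted p = 6.22e-05). Ly6a (1.95), Ifi27l2a (1.62), Isg20 (1.22) and Cmpk2 (0.73), a mitochondrial nucleotide kinase gene next to Rsad2, were the other members called higher. The members called lower in Tfh were Oas2, Ifit2 (-1.10), Ifi44 (-1.11), the transcription factor gene Irf1 (-0.84) and the vacuole-targeting GTPase genes Gbp2 (-0.88) and Igtp (-0.81). Tfh libraries held 161 to 425 CPM of B cell markers and non-Tfh libraries 11.1 to 45.5 CPM. NK cell markers summed to 35.8 to 82.8 CPM in Tfh and 1.35 to 5.97 CPM in non-Tfh, and plasma cell markers to 266 to 566 CPM and 116 to 161 CPM. The part of these cells in the differences was not tested. Fewer cells of one type and less RNA per cell cannot be told apart in these bulk samples.

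Most members that were called between the B cell populations were lower in GC B than in non-GC B cells. Of 45 members tested, 26 were called lower in WT GC B (background 23.1% of 13324 genes) and 1, Isg20, higher (background 24.8%). The median log2 fold change was -0.99, against 0.00 over all genes, and 42 of 45 members had a negative value. Members co-varied between libraries, so the number of signs is not a number of independent observations.

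Ifit3 was 43.7, 174, 31.5, 602 and 201 CPM in WT non-GC B libraries 1 to 5 and ranged from 7.06 to 69.6 CPM with a median of 25.0 in GC B. Libraries 1 and 3 of non-GC B lay within the GC B range, and the other 3 lay above it. The log2 fold change was -2.58 (SE 0.76, adjusted p = 0.00881). Its near copy Ifit3b was 8.81, 33.2, 7.35, 122 and 37.5 CPM in non-GC B and ranged from 1.94 to 15.8 CPM with a median of 4.79 in GC B, with a log2 fold change of -2.50 (SE 0.73, adjusted p = 0.00888). Slfn5, of the Schlafen family of regulators of growth and viral replication, was 81.8, 145, 74.9, 216 and 133 CPM in non-GC B and ranged from 6.73 to 53.1 CPM with a median of 19.0 in GC B. Slfn5 did not overlap between the groups, and its log2 fold change was -2.48 (SE 0.50, adjusted p = 7.29e-04). Like Ifit3 and Ifit3b, it was picked for its large fold change among the called members. How many of all genes lacked overlap here was not computed.

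All 4 IFIT genes were called lower in WT GC B, with log2 fold changes of -2.58 for Ifit3, -2.50 for Ifit3b and -2.26 for Ifit1, and a fold of 4.00 for Ifit2. The transcription factor genes Irf1 (-1.32), Irf7 (-1.45), which drives type I interferon genes, and Irf9 (-1.48), a DNA-binding part of the complex that recognizes the ISRE, were each called lower. Oas2, Oas3, Oasl1 and Oasl2 were called lower, with values from -2.06 to -1.14, and Oas1a was -0.18 and not called. Of the sensors, Ddx58 (-1.87) and Ifih1 (-1.20) were called lower. Of the GTPases, Mx2 (-2.33), Irgm1 (-1.06) and Igtp (-0.69) were, and Gbp2 was 0.78 and not called. None of Isg15 (-0.09), Usp18 (-1.17), which removes ISG15, and Herc6 (-0.19), which attaches it, was called. Isg20 averaged 82.3 ± 26.5 CPM (SD, n = 6) in GC B against 32.6 ± 13.4 CPM (SD, n = 5) in non-GC B, a log2 fold change of 1.40 (SE 0.27, adjusted p = 5.01e-04). The other members called lower were Rsad2 (-1.85), Rtp4 (-2.32), Cmpk2 (-1.47), Samd9l (-1.62), a brake on protein synthesis and growth, Xaf1 (-0.99), an antagonist of the inhibitor of apoptosis XIAP, Trim30a (-0.84), Parp14 (-0.81), Dtx3l (-0.59) and Ly6e (-0.98). Zbp1, a sensor of left-handed nucleic acid, was -0.37, Bst2, the tether of budding virions, was -0.12 and Ifi35 was -0.50, and none of the 3 was called.

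The difference was smaller without WT non-GC B libraries 4 and 5, which held the Siglech reads. Without both of them, 13 members were called (1 higher, 12 lower) and the median log2 fold change was -0.61. The share of all genes called was not computed for this smaller fit. The fall in calls can therefore not be read as particular to the members. The 12 that were still called lower were Mx2, Oas2, Oasl1, Irf1, Irf9, Ddx58, Rtp4, Parp14, Ly6e, Samd9l, Slfn5 and Cmpk2. Member scores were 5.16, 6.20, 5.27, 6.92 and 6.15 in WT non-GC B libraries 1 to 5 and 6.35, 6.25, 5.15 and 5.63 in S1PR4-/- non-GC B libraries 1 to 4. WT non-GC B library 4 also held the most NK cell markers of its group (38.1 CPM, median 1.21) and the most myeloid markers (93.4 CPM, median 40.0). Plasma cell markers summed to 3332 to 7384 CPM in WT GC B and 347 to 691 CPM in WT non-GC B. The part of these cells in the difference was not tested.

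S1PR4-/- B cells showed the same direction. Of 44 members tested, 28 were called lower in S1PR4-/- GC B than non-GC B (background 22.9% of 13484 genes) and 1, Isg20, higher (background 25.3%), with a median log2 fold change of -1.31. Slfn5 was 172, 157, 62.1 and 85.3 CPM in S1PR4-/- non-GC B libraries and ranged from 6.31 to 21.5 CPM with a median of 11.6 in GC B, a log2 fold change of -3.28 (SE 0.36, adjusted p = 1.22e-05). Ifit3 was 406, 284, 99.4 and 129 CPM in non-GC B and ranged from 14.7 to 42.7 CPM with a median of 18.2 in GC B, a log2 fold change of -3.24 (SE 0.42, adjusted p = 4.68e-05). Neither gene overlapped between the groups, and nor did Ifit3b, all being picked as the largest fold changes among the called members. The share of all genes so separated was not computed. Ifit3b was 74.7, 63.5, 26.2 and 35.0 CPM in non-GC B and 3.67 to 9.38 CPM with a median of 4.81 in GC B, with a log2 fold change of -3.16 (SE 0.33, adjusted p = 8.03e-06). Without S1PR4-/- GC B library 3, the library with the most plasma cell markers, 32 members were called lower. The background share was not computed for that fit. The call of Isg20 did not hold when single libraries were left out: no member was called higher without any 1 of S1PR4-/- GC B libraries 1, 2 and 3 or of the 4 non-GC B libraries, or under scaling by total counts. Of the 4 S1PR4-/- non-GC B libraries, 3 held Siglech reads, and the part of this was not tested.

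Between lineages, most called members were lower in WT GC B than in WT Tfh and higher in WT non-GC B than in WT non-Tfh. The second difference shrank to a median of 0.14 without WT non-GC B libraries 4 and 5. Of 44 members tested, 23 were called lower in GC B than Tfh (background 24.2% of 13719 genes) and 2, Oasl1 and Gbp3, higher (background 20.1%), with a median log2 fold change of -0.67. Ifit1, which binds RNA caps that lack a methyl mark of the host, ranged from 4.33 to 18.3 CPM with a median of 7.56 in GC B and from 86.2 to 285 CPM with a median of 112 in Tfh, a log2 fold change of -3.97 (SE 0.46, adjusted p = 3.51e-06). Ifih1 ranged from 2.58 to 7.05 CPM with a median of 4.27 in GC B and from 37.3 to 85.3 CPM with a median of 48.3 in Tfh, a log2 fold change of -3.52 (SE 0.30, adjusted p = 1.83e-07). Parp12, an ADP-ribosyltransferase gene, ranged from 1.03 to 4.21 CPM with a median of 2.44 in GC B and from 13.4 to 36.1 CPM with a median of 21.3 in Tfh, a log2 fold change of -3.14 (SE 0.32, adjusted p = 1.07e-06). None of these 3 genes overlapped between GC B and Tfh, but they were picked as the largest fold changes among the called members. The share of all genes without overlap was not computed. The other members called lower were Ifit2, Ifit3, Ifit3b, Isg15, Oas1a, Oas3, Irf1, Irf7, Rsad2, Ddx58, Rtp4, Xaf1, Zbp1, Parp9, Dtx3l, Ly6a, Igtp, Ifi27l2a, Slfn5 and Herc6.

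In the populations outside the germinal center response, 17 of 44 members were called higher in WT non-GC B than in non-Tfh (background 19.7% of 13669 genes) and 4 lower (background 19.1%), with a median log2 fold change of 0.52. Mx1 was 6.38, 24.6, 7.91, 43.0 and 20.2 CPM in non-GC B, all above the non-Tfh maximum of 3.55 CPM, a log2 fold change of 3.40 (SE 0.47, adjusted p = 2.57e-05). Oasl1, an oligoadenylate synthetase-like protein that restrains IRF7 synthesis, was 41.6, 95.4, 51.3, 191 and 71.3 CPM in non-GC B and ranged from 7.51 to 18.0 CPM with a median of 12.8 in non-Tfh, a log2 fold change of 2.88 (SE 0.39, adjusted p = 2.41e-05). Parp12 was 0.899, 3.21, 0.447, 6.50 and 2.84 CPM in non-GC B and ranged from 17.9 to 33.3 CPM with a median of 21.2 in non-Tfh, a log2 fold change of -3.08 (SE 0.51, adjusted p = 1.43e-04). Mx1, Oasl1 and Parp12 were picked as the largest fold changes among the called members, and the share of all genes without overlap was not computed. Gbp2 (-2.13), Igtp (-1.41) and Ifih1 (-1.31) were the other members called lower. The other members called higher were Ifit3, Mx2, Oas1a, Oasl2, Rsad2, Dhx58, Trim30a, Parp14, Ly6a, Ly6e, Gbp3, Irgm1, Samd9l, Eif2ak2 and Cmpk2. Without libraries 4 and 5 of WT non-GC B, 13 members were called higher and 9 lower, and the median was 0.14. Background shares were not computed for this smaller fit. Without library 4 alone the median was 0.26.

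**Figure D3:**
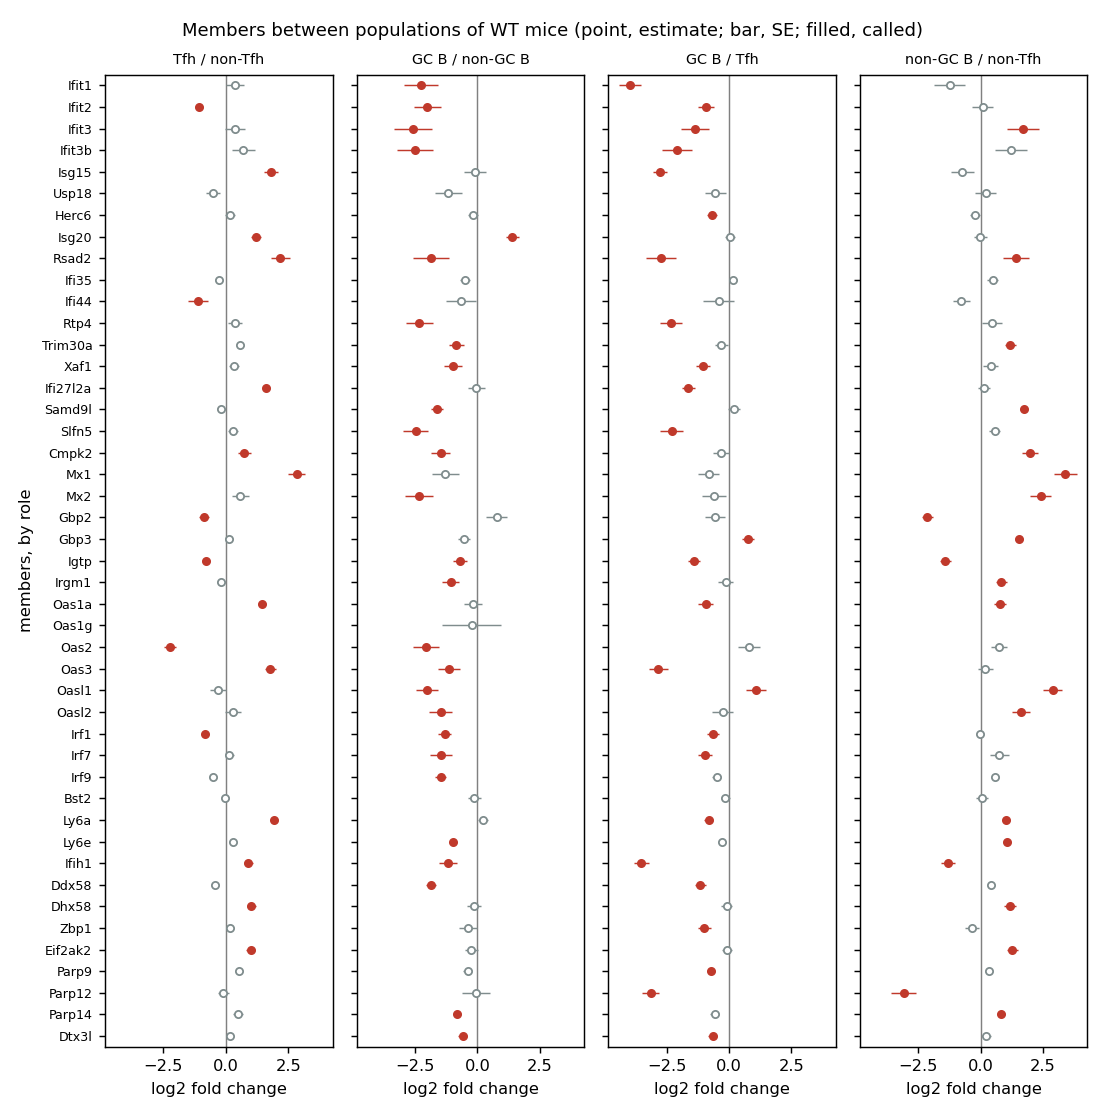
Log2 fold change of every tested member (rows, by role) in 4 comparisons between WT populations. Points are edgeR estimates with their SE as bars, and filled points were called. The 4 IFIT genes lie left of 0 in the 2 GC B panels, and Mx1 lies at 2.83 in Tfh against non-Tfh and at 3.40 in non-GC B against non-Tfh.

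In S1PR4-/- mice the T cell populations gave calls in both directions. Here 6 of 44 members were called higher in Tfh (background 22.3% of 13390 genes) and 10 lower (background 21.1%), and the median log2 fold change was -0.24. Oas2 ranged from 0.586 to 8.49 CPM with a median of 2.64 in Tfh and from 12.1 to 45.7 CPM with a median of 20.4 in non-Tfh, a log2 fold change of -2.74 (SE 0.56, adjusted p = 5.87e-04). Gbp2 ranged from 47.9 to 103 CPM with a median of 59.0 in Tfh and from 129 to 282 CPM with a median of 193 in non-Tfh, a log2 fold change of -1.63 (SE 0.23, adjusted p = 1.91e-05). Igtp ranged from 146 to 308 CPM with a median of 197 in Tfh and from 395 to 825 CPM with a median of 539 in non-Tfh, a log2 fold change of -1.46 (SE 0.20, adjusted p = 1.96e-05). All 3 were separated without overlap, having been picked as the largest fold changes among the called members. How many of all genes were so separated was not computed. The members called higher in Tfh were Mx1, Isg20, Oas1a, Oas3, Ly6a and Ifi27l2a, from 0.78 to 1.40, and those also called lower were Ifit2, Irf1, Irf9, Usp18, Bst2, Ddx58 and Irgm1, from -1.46 to -0.68. Parp12, Rsad2 and Isg15 were -0.64, 1.31 and 0.90 and not called.

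No member was called between S1PR4-/- and WT Tfh cells. By edgeR, 0 of 44 members passed (background 0.496% of 13495 genes), 2 had an unadjusted p under 0.05 (background 19.2%), and DESeq2 called 0. All 44 log2 fold changes were negative, against 50.6% of all tested genes, with a median of -0.25. The median was -0.47 without S1PR4-/- Tfh library 2 and -0.15 without WT Tfh library 3. The scores of the S1PR4-/- Tfh libraries ran from 4.70 to 6.50 and overlapped the WT range, with a mean of 5.54 ± 0.68 (SD, n = 6) against 5.94 ± 0.43 (SD, n = 6). Ly6e ranged from 1498 to 1830.0 CPM with a median of 1661 in S1PR4-/- Tfh and from 1678 to 2133 CPM with a median of 1842 in WT Tfh, a log2 fold change of -0.19 (SE 0.07, unadjusted p = 0.0142, adjusted p = 0.147). Irf1 ranged from 157 to 196 CPM with a median of 175 in S1PR4-/- and from 176 to 239 CPM with a median of 189.7 in WT Tfh, with -0.17 (SE 0.08, unadjusted p = 0.0482, adjusted p = 0.256). Ly6a ranged from 507 to 1141 CPM with a median of 856 in S1PR4-/- and from 839.7 to 1294 CPM with a median of 986 in WT Tfh, with -0.34 (SE 0.17, unadjusted p = 0.0606, adjusted p = 0.285). All 3 genes overlapped between the genotypes.

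The most negative estimates in Tfh were those of Rsad2 (-0.77), Ifit1 (-0.75) and Mx1 (-0.73), and the estimate nearest 0 was that of Gbp3 (-0.02). B cell markers summed to 149 to 269 CPM in S1PR4-/- Tfh and 161 to 425 CPM in WT Tfh, and NK cell markers to 28.2 to 52.3 CPM and 35.8 to 82.8 CPM. With the B cell marker level as a covariate, still 0 members were called and the median log2 fold change was -0.59.

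In non-Tfh cells the estimates lay on the other side of 0. Again 0 of 44 members were called by edgeR (background 0.114% of 13197 genes), while 6 had an unadjusted p under 0.05 (background 11.3%) and DESeq2 called 1, Parp14. The median was 0.23, and 39 of 44 values were positive, against 51.2% of all tested genes. The median was 0.08 without S1PR4-/- library 2, 0.13 without S1PR4-/- library 5 and 0.15 without WT library 2. Irf1 ranged from 412 to 566 CPM with a median of 489.6 in S1PR4-/- and from 307 to 410.1 CPM with a median of 351 in WT non-Tfh, so the genotypes did not overlap, and its log2 fold change was 0.47 (SE 0.10, unadjusted p = 2.64e-04, adjusted p = 0.0670). Dtx3l, the ubiquitin ligase partner of PARP9, ranged from 129.6 to 179.6 CPM with a median of 143 in S1PR4-/- and from 91.5 to 142 CPM with a median of 102 in WT, with 0.44 (SE 0.13, unadjusted p = 0.00430, adjusted p = 0.204). Parp14, an ADP-ribosyltransferase gene, ranged from 81.2 to 165 CPM with a median of 101 in S1PR4-/- and from 49.7 to 103 CPM with a median of 69.6 in WT, with 0.60 (SE 0.19, unadjusted p = 0.00565, adjusted p = 0.219). Dtx3l and Parp14 overlapped between the genotypes. Irf1 was picked as the member with the lowest p, and the share of all genes without overlap was not computed. The largest estimate was that of Mx1 (0.86), and the 6 GTPase genes were all positive, from 0.08 to 0.86.

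In GC B cells 0 of 44 members were called by edgeR (background 0.0612% of 13070 genes) and 0 by DESeq2, and 3 had an unadjusted p under 0.05 (background 4.13%). The median log2 fold change was -0.33, with 40 of 44 values negative against 48.3% of all tested genes. Oas2 ranged from 1.39 to 5.24 CPM with a median of 2.61 in S1PR4-/- and from 2.12 to 16.2 CPM with a median of 5.65 in WT GC B, with -1.29 (SE 0.50, unadjusted p = 0.0234, adjusted p = 0.985). Rtp4, a receptor chaperone that also binds viral replication complexes, ranged from 4.72 to 20.6 CPM with a median of 7.87 in S1PR4-/- and from 6.15 to 46.1 CPM with a median of 19.5 in WT, with -1.16 (SE 0.48, unadjusted p = 0.0312, adjusted p = 0.985). Irf9 ranged from 59.2 to 136 CPM with a median of 76.4 in S1PR4-/- and from 74.3 to 173 CPM with a median of 122 in WT, with -0.49 (SE 0.23, unadjusted p = 0.0482, adjusted p = 0.985). All 3 overlapped between the genotypes. S1PR4-/- GC B library 3, high in plasma cell markers, also had the highest member score of its group (5.40), with Bst2 at 176 CPM against a group median of 30.3. The median was -0.63 without this library and -0.16 without WT GC B library 6, with 0 members called in both cases.

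In non-GC B cells 0 of 44 members were called by edgeR (background 0.0537% of 13038 genes) and 0 by DESeq2, and 0 had an unadjusted p under 0.05 (background 4.55%). The median was -0.13, 31 of 44 values were negative against 51.8% of all tested genes. With single libraries left out the median ran from -0.31, without S1PR4-/- library 1, to 0.11, without WT library 4, and it was also positive, at 0.03, without S1PR4-/- library 3. Parp14 was 113, 123, 77.1 and 104 CPM in S1PR4-/- and 107, 167, 112, 120.0 and 115 CPM in WT libraries, with -0.25 (SE 0.15, unadjusted p = 0.129, adjusted p = 0.981). Ifi27l2a was 164, 147, 37.8 and 98.6 CPM in S1PR4-/- and 85.4, 199, 117, 273 and 208 CPM in WT, with -0.65 (SE 0.41, unadjusted p = 0.137, adjusted p = 0.981). Ly6a was 519, 496, 297 and 418 CPM in S1PR4-/- and 399.7, 470.3, 464, 694 and 590.1 CPM in WT, with -0.27 (SE 0.18, unadjusted p = 0.165, adjusted p = 0.981). These genes overlapped between the genotypes. The 4 IFIT genes had positive estimates, from 0.12 to 0.26, each with an SE of at least 0.56.

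**Figure D4:**
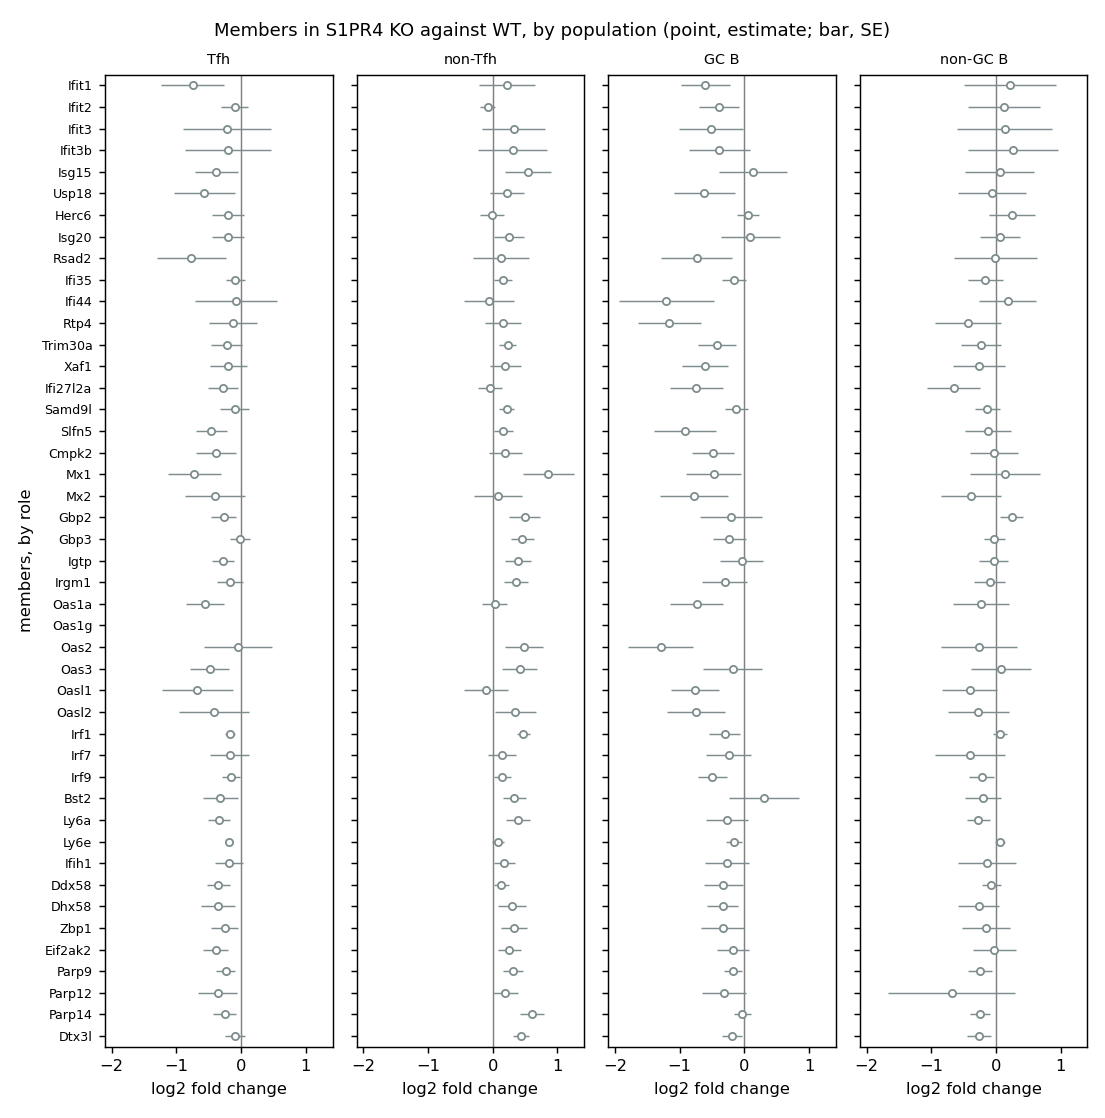
Log2 fold change of every tested member (rows, by role) in S1PR4-/- against WT, in each of the 4 populations. Points are edgeR estimates with their SE as bars, and open points were not called. All 44 points lie left of 0 in Tfh and 39 of 44 lie right of 0 in non-Tfh, most of them within 2 SE of 0.

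Whether the S1PR4-/- effect differed between Tfh and non-Tfh was tested as an interaction in 1 edgeR model over the Tfh and non-Tfh libraries. The model had no term for the replicate number. In it no member passed an adjusted p of 0.05 (0 of 44, background 0.0139% of 14401 genes), 12 had an unadjusted p under 0.05 (background 9.2%), and DESeq2 called 1, Irf1. All 44 interaction estimates were negative, against 52.3% of all genes, with a median of -0.55 on the log2 scale. Irf1 had the lowest p, with an estimate of -0.64 (SE 0.13, adjusted p = 0.0758 from edgeR). Parp14 followed with -0.86 (SE 0.28, adjusted p = 0.337), then Ly6a with -0.74 (SE 0.27, adjusted p = 0.405). Mx1 had an estimate of -1.58 (SE 0.61, adjusted p = 0.419). The 5 genes from Irf1 to Dtx3l by p all had estimates of at most -0.53. A fit with a replicate block, described in the last section, called 6 members (background 0.285% of 14401 genes).

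Tfh and non-Tfh libraries of the same number were then set side by side. In WT, the Tfh score minus the non-Tfh score was 0.17, 0.43, 0.93, 0.09, 0.51 and -0.14 for numbers 1 to 6, higher in 5 of 6. In S1PR4-/-, the difference was -0.67, -0.01, -0.18, -0.76, -0.22 and 0.32, lower in 5 of 6. WT numbers averaged 0.33 ± 0.38 (SD over 6 numbers), and S1PR4-/- numbers averaged -0.25 ± 0.41 (SD over 6).

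The scores of same-numbered libraries were positively correlated, given here as a description, since the points share a number and may share an animal. Pearson's r between Tfh and non-Tfh scores was 0.54 over the 6 WT numbers (Spearman's rho 0.60) and 0.81 over the 6 S1PR4-/- numbers (rho 0.89). Without the 2 numbers farthest from the median non-Tfh score, r over the 4 left was 0.67 in WT and 0.15 in S1PR4-/-, so the latter rests on those 2 numbers together. With 1 number left out at a time, r ran from 0.35 to 0.74 in WT and from 0.62 to 0.92 in S1PR4-/-. By gene, 43 of 45 members had r above 0 in WT, against 64.8% of all genes, and 45 of 45 in S1PR4-/-, against 59.8% of all genes. S1PR4-/- number 2 was the highest in both populations, with 6.50 in Tfh and 6.51 in non-Tfh.

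**Figure D5:**
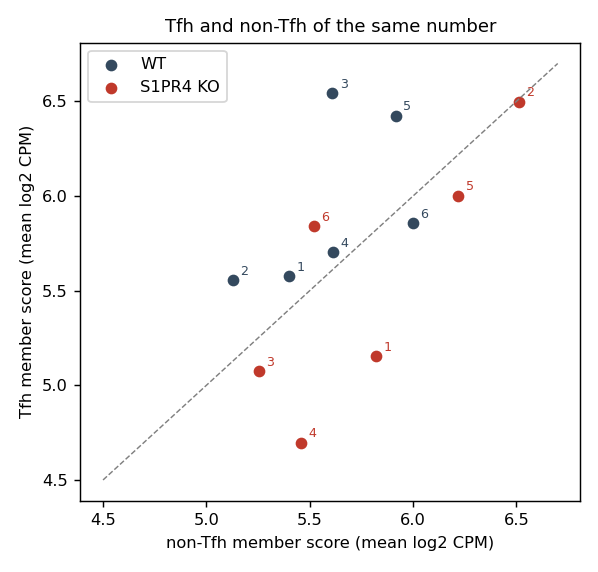
Member score (mean log2 CPM) of each Tfh library against that of the non-Tfh library of the same number, with WT in dark blue and S1PR4-/- in red. Numbers mark the replicate and the dashed line marks equal scores. WT points lie above the line for 5 of 6 numbers and S1PR4-/- points below it for 5 of 6.

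Parp14 and Dtx3l were the members whose Tfh minus non-Tfh difference had one sign in all 6 WT numbers and the other in all 6 S1PR4-/- numbers, which held for 2 of 45 members and for 0.0556% of 16200 genes. Parp14 was higher in Tfh in WT by 0.45 ± 0.14 on the log2 scale (SD, n = 6), and its S1PR4-/- difference was -0.35 ± 0.21 (SD, n = 6). For Dtx3l the differences were 0.17 ± 0.10 and -0.35 ± 0.15 (SD, n = 6 each). Irf1 was lower in Tfh in all 6 numbers of both genotypes, with differences of -0.84 ± 0.13 in WT and -1.46 ± 0.22 in S1PR4-/-. Mx1 was higher in Tfh in all 6 of both, by 2.73 ± 0.47 in WT and 1.24 ± 0.44 in S1PR4-/-. In all, 18 members were higher in Tfh in every WT number (29.8% of all genes) and 7 lower (28.8%), and 11 were higher in every S1PR4-/- number (28.8%) and 17 lower (30.0%).

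Members varied between libraries of one group more than most genes did. The median SD of log2 CPM over members was 0.44 in WT Tfh against 0.22 over 16200 genes, 0.35 against 0.24 in WT non-Tfh, 0.67 against 0.27 in WT GC B and 0.63 against 0.26 in WT non-GC B. In S1PR4-/- libraries the median was 0.62 in Tfh, 0.48 in non-Tfh, 0.63 in GC B and 0.68 in non-GC B. The variation was shared, with a median pairwise r between members of 0.68 in S1PR4-/- GC B to 0.93 in WT non-GC B. Ifit3 and Ifit3b were the most variable members in WT Tfh and in S1PR4-/- non-Tfh, with SDs of 0.94 and 1.05 in WT Tfh, while Ly6e was the least variable member in 5 of the 8 groups, at 0.07 to 0.27.

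The other genes of the pathway were counted from a fixed list of 54 in the table. No library held a read of Ifnb1, and over the interferon alpha genes on the list the highest expected count in any library was 3, for Ifna5. Of the other interferon genes listed, Ifnz reached an expected count of 13, with counts in 19 libraries, and Ifnk 7, with counts in 5. Ifng, the type II interferon gene, averaged 1.14 ± 0.757 CPM (SD, n = 6) in WT Tfh and 3.70 ± 3.81 CPM (SD, n = 6) in S1PR4-/- Tfh, a log2 fold change of 1.70 (SE 0.71, adjusted p = 0.209) by edgeR. Of 32 pathway genes tested between WT Tfh and non-Tfh, 10 were called higher and 6 lower, against 22.8% and 20.4% of all genes. The interferon gamma receptor genes Ifngr1 (-1.03) and Ifngr2 (-2.27) were lower in Tfh, and Ifnar2 (0.73), a chain of the type I receptor, was higher. Of 33 tested between WT GC B and non-GC B, 1 was called higher and 15 lower, against 24.8% and 23.1% of all genes. Those lower included Ifnar1 (-1.19), Ifnar2 (-1.09) and Stat2 (-0.96), and the 1 higher was the type III receptor gene Ifnlr1 (1.74).

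Between genotypes, edgeR called 0 of the pathway genes in any population, and 9 of 32 in Tfh, 7 of 31 in non-Tfh, 1 of 33 in GC B and 4 of 33 in non-GC B had an unadjusted p under 0.05, against 19.2%, 11.3%, 4.13% and 4.55% of all genes. By DESeq2 the calls in these populations were 0, 0, 0 and 0, in that order.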

How the data were processed

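Bulk RNA-seq of 45 sorted lymph node samples was analysed. Per the submitters' processing notes, the authors used cutadapt 2.10 for trimming, STAR 2.5.3 for alignment and RSEM 1.3.0 for quantification, and the table deposited holds expected counts per gene, which are estimated and not normalized (8.83% of values are not whole). Counts were rounded for the tests. The study's methods name GENCODE M30, while positions and exon lengths used here came from mm10 with GENCODE M21, where the symbols of all 45 members were found. Levels per kb therefore rest on lengths from another release than the one stated for the counts.

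Groups came from the sample descriptions. Pairs of groups were compared with edgeR 4.0.16 (R 4.3.3), using TMM factors, filterByExpr, a quasi-likelihood test and Benjamini-Hochberg adjustment over all tested genes. Calls needed an adjusted p under 0.05 and a fold over 1.5, and the interaction an adjusted p alone. Every adjusted p in the text is from this test. DESeq2 1.42.0, other scalings, no filter on low counts, a fit over all groups, a replicate block and leaving out each library were alternatives. Libraries were not left out in turn for WT GC B against Tfh or for S1PR4-/- Tfh against non-Tfh. Log2 CPM used a prior count of 2. The fit was tested on simulated data with known fold changes.

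The members and lists were chosen with earlier results of these data known. In each comparison, sample values are given for the 3 called members with the largest absolute log2 fold change and a mean of at least 1 CPM, or, with none called, for the 3 with the lowest unadjusted p. Other members are named by role group, and those beyond the highest and lowest of a group were chosen after their values were seen. Depth limits precision only for members at a few CPM, such as Oas1g.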

Additional observations from a re-analysis of the deposited data

Results flagged for a closer look

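In 67 checks of named members for a library far from the others of its group, 5 values stood apart, and chance gives about 1 in 20. Gbp2 was 102.709 CPM in S1PR4-/- Tfh library 2, against 64.1675 in the nearest of the group. Ifit3b was 9.37981 CPM in S1PR4-/- GC B library 3, against 5.5022 in the nearest. Ifit3b was 121.664 CPM in WT non-GC B library 4, against 37.4973 in the nearest. Mx1 was 3.54569 CPM in WT non-Tfh library 5, against 2.12468 in the nearest. Parp14 was 166.581 CPM in WT non-GC B library 2, against 120.022 in the nearest.

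Parp14 and Dtx3l were set apart because Tfh lay above non-Tfh in every WT number and below it in every S1PR4-/- number. The interaction estimate of Parp14 was -0.860309 on the log2 scale, with an unadjusted p of 0.0047 and an adjusted p of 0.337 by edgeR. That of Dtx3l was -0.530099, with an unadjusted p of 0.0209 and an adjusted p of 0.443. Neither passed the adjusted threshold in this model, which had no term for the replicate number, and both were picked for this pattern. With a replicate block both were among the 6 members called (background 0.285% of 14401 genes). Whether the numbers pair the libraries is unclear, as described below.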

How the results depend on the processing

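Of 144 recomputed values, 139 stayed within 1.5 times the reported count or within the spread between libraries, and 5 did not. Direction was not part of this check. Without WT non-GC B libraries 4 and 5, a choice made after seeing the data, 13 members were called between WT GC B and non-GC B. For this fit and the fits with single libraries left out, the share over all genes was not computed. DESeq2 called 1 member, Parp14, between the genotypes in non-Tfh, and 1, Irf1, in the interaction. With a replicate block, 18 members were called between S1PR4-/- GC B and non-GC B against 29 without it. That fit kept only replicate numbers present in both groups, so S1PR4-/- GC B libraries 5 and 6 were dropped. Its share over all genes was not computed. In the interaction the block gave 6 calls (Mx1, Irf1, Parp9, Parp14, Dtx3l and Ly6a), against 0.285% of 14401 genes. The cause of these changes was not tested. Whether the numbers pair the libraries is unclear: deviations of same-numbered Tfh and non-Tfh libraries over all genes correlated by over 0.1 in 2 of 6 WT and 3 of 6 S1PR4-/- pairs, and 4 of 6 WT and 6 of 6 S1PR4-/- Tfh libraries correlated best with their own number. Leaving out each library in turn gave 17 to 20 calls between WT Tfh and non-Tfh, 20 to 31 between WT GC B and non-GC B, 19 to 26 between WT non-GC B and non-Tfh, 21 to 32 between S1PR4-/- GC B and non-GC B, and 0 in each comparison of genotypes. For the interaction each replicate number was left out instead, with its Tfh and non-Tfh libraries of both genotypes, and 0 members were called.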
